A study of Mus musculus with 9 samples.

Results

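The response of mouse bone marrow-derived macrophages to the chemokine CX3CL1 was read from 3 RNA-seq libraries of CX3CL1-treated cells and 3 libraries of cells given bovine serum albumin (BSA), 6 of the 9 libraries in the series. Libraries were assigned by their treatment label, and every gene of the deposited count table, 13593 in all, was considered. All groups shared the same cells: marrow of wild-type C57BL/6 mice aged 6 weeks, grown for 7 days in medium with 15% supernatant of L929 cells, a fibroblast line that secretes macrophage colony-stimulating factor. Each protein was given at 4 nM for 4 h. The other 3 libraries came from cells given CCL26, a CC chemokine, under the same conditions, and they entered the fits through the shared estimate of the spread between libraries. The labels do not tie the replicates to separate mice or cultures, so the p-values describe the spread between libraries, some or all of which may be technical.

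CX3CL1, or fractalkine, is made as a membrane protein whose chemokine domain sits on a mucin stalk, and the metalloproteases ADAM10 and ADAM17 shed it as a soluble attractant. Its receptor CX3CR1 couples to inhibitory G proteins and is a hallmark of monocytes, microglia and several tissue macrophages, in which the pair is known for adhesion, survival and the control of inflammatory activity. Signals of this kind are often read out through immediate-early genes, whose transcription responds to kinase and cAMP pathways without new protein synthesis.

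One CX3CL1 library stood apart before any comparison was made. In CX3CL1 replicate 1, 1193 genes were at 0, where the other 8 libraries had 80 to 170 such genes, at a similar depth (16923982 to 23198324 counts per library). Its level depended on the exonic length of the gene: the median log2 difference from the BSA mean was 0.70 for genes under 1 kb and 0.79 from 1 to 2 kb, and it was -0.35 from 4 to 8 kb and -0.89 above 8 kb. In CX3CL1 replicates 2 and 3 the same medians lay between -0.07 and 0.02. Fold changes below are therefore given without CX3CL1 replicate 1 and then with it, that is with all 9 libraries; no gene passed in CX3CL1 against BSA with it. Levels are CPM, counts scaled to a common library size after TMM normalization, and differences of single libraries are on the log2(CPM + 0.5) scale.

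**Figure D1:**
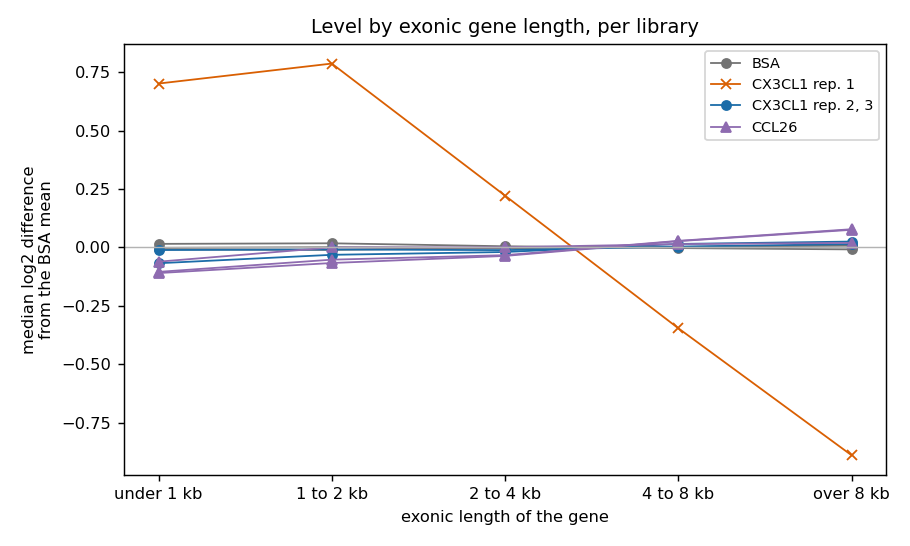
Median log2 difference from the BSA mean (vertical axis) in 5 classes of exonic gene length (horizontal axis), 1 line per library. CX3CL1 replicate 1 runs from 0.70 in the shortest class to -0.89 in the longest, while the other 8 libraries stay near 0.

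The cells were macrophages by their markers in both groups. Lyz2, Adgre1, Csf1r, Mpeg1 and the other macrophage markers, 22 of 22, were in the table, and their summed level was 38169 to 38767 CPM with BSA, 53679 CPM in CX3CL1 replicate 1 and 37024 and 36228 CPM in CX3CL1 replicates 2 and 3. Markers of T and NK cells summed to at most 3.38 CPM in these 6 libraries, with 10 of 12 not in the table. Dendritic cell markers (7 of 12), chiefly Bst2 and Irf8, summed to 446 to 479 CPM with BSA and to 1041, 424 and 424 CPM with CX3CL1. B cell markers (3 of 9), chiefly Ighm, summed to 98.4 to 108 CPM and to 212, 101 and 107 CPM. Erythroid and megakaryocyte markers (4 of 13), chiefly Pf4, summed to 82.7 to 85.2 CPM and to 263.5, 91.1 and 84.5 CPM. Inflammatory monocyte markers, 10 of 10 in the table, summed to 97.7 to 110.3 CPM with BSA and to 92.4, 97.3 and 88.6 CPM with CX3CL1, most of it from F13a1. Granulocyte markers (14 of 17) summed to 201 to 214 CPM with BSA and to 338, 219 and 207 CPM with CX3CL1, and stromal markers (7 of 14) were carried by Vim, which macrophages also express. No marker of another cell type passed the test in either fit. In such bulk samples a smaller number of cells of one type and less RNA per cell cannot be told apart.

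With all 9 libraries, no gene passed in either direction. Of 12915 genes tested, 0 were higher and 0 lower after CX3CL1 (0% each, edgeR with its quasi-likelihood test, p adjusted by Benjamini and Hochberg's method, under 0.05), and the smallest adjusted p was 0.711. At an unadjusted p under 0.05, 288 genes were higher (2.23%) and 117 lower (0.906%). DESeq2 and limma-voom also called 0 genes. Limma-voom with library quality weights, which gave CX3CL1 replicate 1 a weight of 0.0249 and the others 0.813 to 1.95, called 2 higher and 27 lower.

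Without CX3CL1 replicate 1, a small set of genes was lower with CX3CL1. Of 13245 genes, 41 fell (0.31%) and 3 rose (0.0227%), by edgeR at the same threshold. They covered monocyte chemoattractants (Ccl7, Ccl12), transcriptional regulators that respond quickly to stimuli (Atf3, Junb, Csrnp1, Crem, Klf6), chaperones (Hspa5, Hspa8, Hsp90aa1, Dnajb9), and enzymes and transporters of polyamines, choline, iron and amino acids (Odc1, Chka, Slc40a1, Slc38a2). The changes were small: the log2 fold changes of the lower genes ran from -0.68 to -0.10, with a median of -0.26, and their median with all 9 libraries was -0.30. None of the 44 passed in both fits, also at thresholds of 0.01 and 0.1. The same sign was found for 35 of the 44 in the fit of all 9 libraries. That fit holds every library used to choose the 44, so a shared sign was favoured beforehand. The count rests on few libraries. Without BSA replicate 1, 2 or 3 as well, 0 genes rose and 3 fell, each time Atf3, Hspa5 and Odc1. Without CX3CL1 replicate 2 as well, 1 rose and 1 fell (Atf3), and without CX3CL1 replicate 3, 0 rose and 0 fell; in both cases the lone CX3CL1 library was assumed to vary like the other groups. Leaving out CCL26 replicate 3, which enters through the spread, gave 35 higher and 152 lower, and the BSA and CX3CL1 libraries alone gave 23 and 137.

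Atf3, a transcription factor of the ATF/CREB family induced by stress and inflammatory signals, had the smallest p. Its level was 752, 755 and 762 CPM with BSA and 698, 632 and 607 CPM with CX3CL1. All 3 CX3CL1 libraries were below all BSA libraries, with replicate 1 the nearest to them. The log2 fold change without CX3CL1 replicate 1 was -0.29 (SE 0.0366, edgeR adjusted p = 0.000565), where the standard error (SE) was taken from the F statistic, as the size of the change over the root of F. With all 9 libraries it was -0.23 (SE 0.0968, adjusted p = 0.711, unadjusted p = 0.0428). Atf3 lies on chromosome 1 from 191170296 to 191218039 (GRCm38, GENCODE M21).

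The largest decrease was that of Ciart, a repressor of the circadian clock that acts on CLOCK and BMAL1. It stood at 27.1, 25.8 and 21.8 CPM with BSA and at 17.6, 16.1 and 15.1 CPM with CX3CL1. The groups did not overlap, and all CX3CL1 libraries, replicate 1 included, lay close together. The log2 fold change was -0.68 (SE 0.14, edgeR adjusted p = 0.0352) without replicate 1 and -0.62 (SE 0.157, adjusted p = 0.711) with it. Ciart was the only called member of 17 tested circadian clock genes, where 0.31% of all tested genes fell and 0.0227% rose without replicate 1. The median of the list was -0.06 without and -0.24 with CX3CL1 replicate 1, against -0.00 and -0.01 over all tested genes. The clock genes Per1 (-0.20, edgeR adjusted p = 0.608, and -0.40 with replicate 1) and Per3 (0.46, adjusted p = 0.688, and 0.50) did not pass. Ciart lies on chromosome 3 from 95878503 to 95882251.

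Csrnp1, a nuclear protein gene first described as induced by AXIN1, was at 43.8, 46.5 and 44.8 CPM with BSA and at 33.6, 32.7 and 26.1 CPM with CX3CL1. All CX3CL1 libraries were lower. The log2 fold change was -0.62 (SE 0.123, edgeR adjusted p = 0.0272) without replicate 1 and -0.55 (SE 0.164, adjusted p = 0.711) with it. As annotated in GENCODE M21, Csrnp1 (chromosome 9, 119971163 to 119984658) lies inside the span of Cx3cr1 on the same strand, so reads that fall in both could have been divided or dropped. Slc35e3, an orphan member of the nucleotide-sugar transporter family, was at 42.1, 44.8 and 41.3 CPM with BSA and at 19.4, 28.8 and 31.0 CPM with CX3CL1, again without overlap (-0.51, SE 0.101, edgeR adjusted p = 0.0264 without replicate 1, and -0.69, SE 0.18, adjusted p = 0.711 with it). Topors, a ubiquitin and SUMO ligase that binds topoisomerase I, had 178, 177 and 170.1 CPM with BSA and 130.1, 136 and 142 CPM with CX3CL1. Its log2 fold change was -0.33 (SE 0.0609, edgeR adjusted p = 0.0169) without replicate 1 and -0.36 with it.

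Other genes moved down in CX3CL1 replicates 2 and 3 alone. Ccl7 and Ccl12, whose products attract monocytes through CCR2, lie on chromosome 11, from 82045712 to 82047525 and from 82101845 to 82103400. Ccl7 had 56.3, 56.9 and 55.4 CPM with BSA and 109, 41.9 and 41.8 CPM with CX3CL1. Ccl12 had 23.2, 22 and 20.8 CPM with BSA and 31.7, 15.4 and 13.3 CPM with CX3CL1. In both genes replicate 1 was above every BSA library and the other CX3CL1 libraries were below. The log2 fold changes without replicate 1 were -0.43 for Ccl7 (SE 0.0819, edgeR adjusted p = 0.0247) and -0.62 for Ccl12 (SE 0.139, adjusted p = 0.0497), and with it 0.19 and -0.13. Of 17 chemokine ligand genes these 2 fell and none rose, where 0.31% of all tested genes fell and 0.0227% rose. Ccl2 (-0.30, adjusted p = 0.0787, and 0.04 with replicate 1) and Ccl6 (-0.23, adjusted p = 0.235, and -0.12) did not pass. The list's median was -0.06 without replicate 1 and 0.31 with it.

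Odc1, the first and rate-limiting enzyme of polyamine synthesis, showed the same split. It had 131, 130.1 and 128 CPM with BSA and 148, 99.0 and 95.6 CPM with CX3CL1. The log2 fold change was -0.41 (SE 0.0599, edgeR adjusted p = 0.00158) without replicate 1 and -0.18 (SE 0.168, adjusted p = 0.711) with it. Crem, a modulator of cAMP-dependent transcription, had 31.2, 33.2 and 35.0 CPM with BSA and 43.3, 21.4 and 23.9 CPM with CX3CL1 (-0.55, SE 0.118, edgeR adjusted p = 0.0409 without replicate 1, and -0.17 with it). Ifi204, an interferon-inducible DNA-binding protein gene with close paralogs beside it, so that its counts are uncertain, had -0.41 (adjusted p = 0.0285) and -0.20.

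Of the 12 largest decreases, the remaining genes were the death effector domain gene Dedd2 (-0.43, edgeR adjusted p = 0.0409), the choline kinase gene Chka (-0.40, adjusted p = 0.0357) and Slc40a1, the iron exporter ferroportin (-0.35, adjusted p = 0.0247). With replicate 1 they had -0.32, -0.24 and -0.53. Slc40a1 had 116, 108 and 108 CPM with BSA and 56.1, 86.9 and 86.3 CPM with CX3CL1, and replicate 1 was the lowest of the 6 libraries. Slc40a1 has 9000 exonic bases. Its log2 difference from BSA in replicate 1 was -0.97, where all genes above 8 kb had a median of -0.89 in that library. The other 29 lower genes had log2 fold changes from -0.33 to -0.10. They included genes at very high levels and small changes, such as the lysozyme gene Lyz2 (-0.10, edgeR adjusted p = 0.0146), the actin-binding Tmsb4x (-0.12, adjusted p = 0.0199) and the ferritin heavy chain gene Fth1 (-0.10, adjusted p = 0.0389). With replicate 1 the direction of these 3 was the opposite, at 0.19, 0.66 and 0.57. Lyz2 stood at 23172, 23563 and 23731 CPM with BSA and at 36699, 22258 and 21573 CPM with CX3CL1. In these 3 genes, all of under 3.5 kb, replicate 1 was above every BSA library. Further members of the 29 were Siglec1, the macrophage adhesion receptor CD169, and genes of membrane traffic (Ehd1, Cltc), autophagy (Map1lc3b), mRNA decay (Zfp36l2), translation termination (Etf1), matrix (Thbs1), electron transfer (Cyb5a), transport (Slc13a3), osmotic response (Nfat5) and protein turnover (Fem1c, Wsb1), besides Hipk1, Lhfpl2 and Ankrd33b. Siglec1 had 255, 246 and 236 CPM with BSA and 43.1, 204 and 208 CPM with CX3CL1 (-0.25 without and -0.70 with replicate 1).

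Among the 3 higher genes, E2f2, a transcription factor that drives entry into S phase, kept its side in all CX3CL1 libraries. It had 32.8, 31.4 and 30.9 CPM with BSA and 38.0, 43.3 and 42.1 CPM with CX3CL1. The log2 fold change was 0.43 (SE 0.0929, edgeR adjusted p = 0.0409) without replicate 1 and 0.38 (SE 0.115, adjusted p = 0.711) with it. Gas7, a growth arrest gene whose product binds actin, rose by 0.27 without replicate 1 (adjusted p = 0.0409), but replicate 1 was at 95 CPM, below the BSA libraries (114, 122 and 128 CPM), and the value with it was 0.09. The long noncoding RNA gene Gm42047 rose by 0.43 (adjusted p = 0.0194) and had 0.29 with replicate 1, which was inside the range of BSA.

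**Figure D2:**
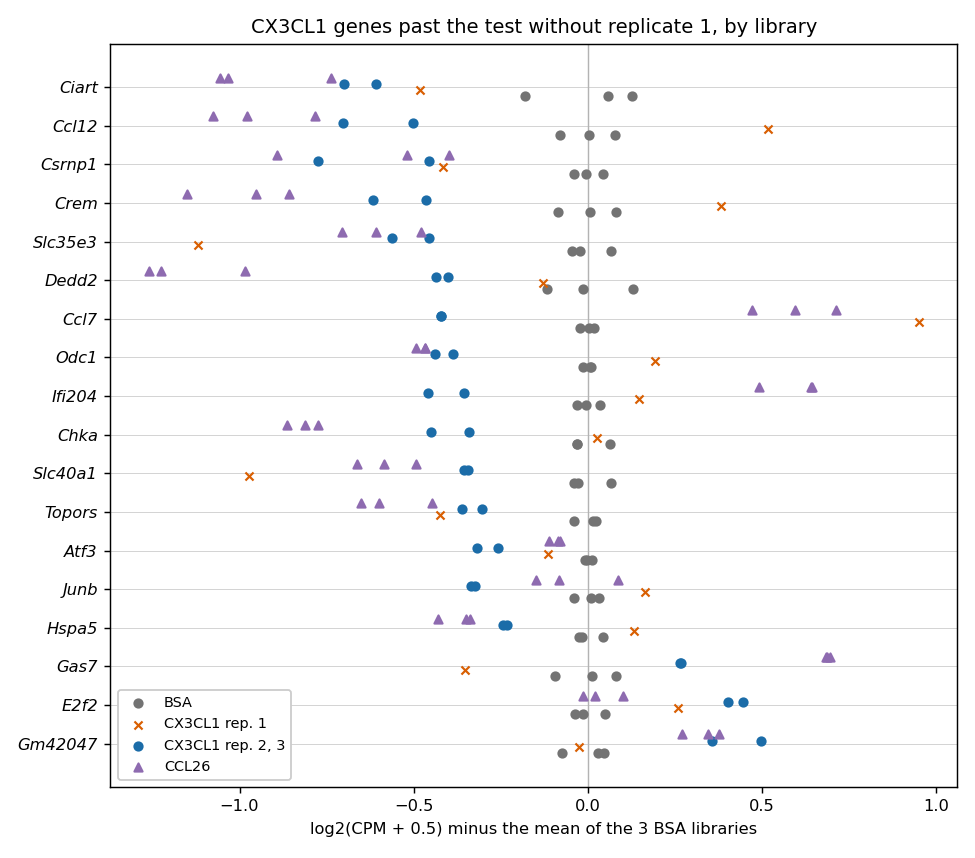
Difference of each library from the mean of the 3 BSA libraries on the log2(CPM + 0.5) scale (horizontal axis), for the 12 largest decreases, 3 further lower genes and the 3 higher genes of the fit without CX3CL1 replicate 1 (vertical axis). CX3CL1 replicates 2 and 3 lie left of every BSA library in the lower genes, while replicate 1 (cross) lies on either side; the CCL26 libraries are drawn for reference.

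CX3CL1 replicate 1 took no part in choosing the 44 genes, so its values are set beside the choice as a description. The 3 BSA libraries did take part in it, which favours values below BSA in genes chosen as lower, so the share over all genes is not what unchanged genes chosen in this way would show. Of the 41 lower genes, 25 were below all 3 BSA libraries in replicate 1 (61.0%), 15 were above all and 1 was within. Among all 13245 tested genes, 47.7% were below and 40.6% above in that library. Of the 3 higher genes, 1 was above. The side went with length: of the 28 lower genes of at least 3.5 kb, 21 were below and 6 above, and of the 13 shorter ones 4 were below and 9 above. After removal of the library's trend on length, 27 of 41 were below (48.1% of all genes) and 3 of 3 above (38.5% of all genes).

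**Figure D3:**
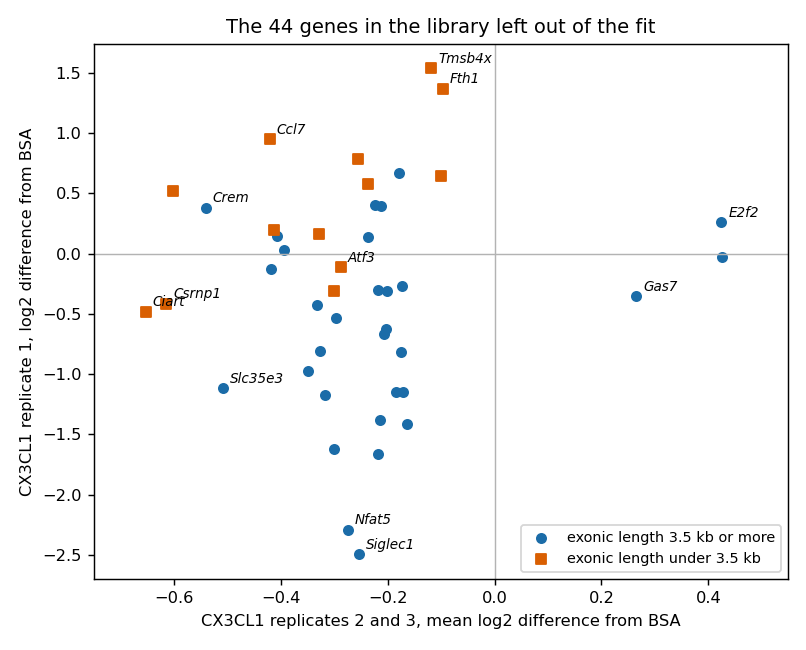
The 44 genes by their mean log2 difference from BSA in CX3CL1 replicates 2 and 3 (horizontal axis, used to choose them) and in replicate 1 (vertical axis, not used). Of the 41 genes on the left, 25 had replicate 1 below all BSA libraries, and most genes under 3.5 kb (squares) lie above 0.

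The immediate-early genes had a negative median in each CX3CL1 library. All 43 members of the list were tested, and without replicate 1 5 fell (Atf3, Junb, Csrnp1, Plk2 and Klf6), and none rose, where 0.31% of all tested genes fell and 0.0227% rose. Negative log2 fold changes were found in 40 of 43 (93.0%), against 50.4% of all tested genes, and the median was -0.20, against -0.00. In the fit of all 9, 0 passed, 34 of 43 were negative (79.1%, against 50.6% of all genes) and the median was -0.31. At an unadjusted p under 0.05, 18 were lower without replicate 1 (41.9%, against 4.13% of all genes) and 10 with it (23.3%, against 0.906%). In CCL26 against the same BSA libraries the median of these genes was -0.13 in each fit. Without CX3CL1 replicate 1, 12 of them were lower and 7 higher with CCL26, where 9.26% and 9.74% of all tested genes were. With all 9 libraries 0 were lower and 2 higher, where 0.0465% and 0.387% of all tested genes were.

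Library by library, the median difference of the 43 genes from BSA was -0.35 in CX3CL1 replicate 1, -0.19 in replicate 2 and -0.19 in replicate 3. Their median exonic length was 3049 bases, and over all genes of 2 to 4 kb replicate 1 had a median of 0.22. Members differ in length, such as Per1 with 5631 bases, and over all genes of 4 to 8 kb that median was -0.35. The list was not compared with genes of matched length. Summed over the list, the level was 4267 to 4310.3 CPM with BSA and 3797, 3777 and 3762 CPM with CX3CL1, and 41.9% of the members (18 of 43) had all 3 CX3CL1 libraries below all BSA libraries, against 6.93% of all genes. Without replicate 1 the number was 26, against 13.2% of all genes. These genes share regulators and are not independent of each other, and the call of 5 genes became 1 (Atf3) when any BSA library or CX3CL1 replicate 2 was left out as well, and 0 without CX3CL1 replicate 3. It was 3 without CCL26 replicate 1.

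Junb, a subunit of the AP-1 transcription factor, had 271, 262 and 276 CPM with BSA and 302, 214 and 215 CPM with CX3CL1. Replicate 1 was the highest of the 6 libraries and the other CX3CL1 libraries the lowest (-0.33, SE 0.0572, edgeR adjusted p = 0.0133 without replicate 1, and -0.15 with it). Plk2, a polo-like kinase induced by growth factors, had 505, 500.3 and 471 CPM with BSA and 309, 419.7 and 432 CPM with CX3CL1. It has 4491 exonic bases, and all genes of 4 to 8 kb had a median of -0.35 in replicate 1. Klf6, a zinc finger factor, had 689.6, 712 and 717 CPM with BSA and 400.2, 633 and 618 CPM with CX3CL1. In both genes all CX3CL1 libraries were lower, and replicate 1 was the lowest. Their log2 fold changes were -0.21 and -0.18 without replicate 1 (edgeR adjusted p = 0.0389 and 0.0409) and -0.35 and -0.36 with it.

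Several members short of the threshold had no overlap between the groups. Gem, a small GTPase that blocks calcium channels, had 34.6, 25.8 and 28.6 CPM with BSA and 13.2, 20.2 and 21 CPM with CX3CL1 (-0.53, edgeR adjusted p = 0.067 without replicate 1, and -0.71 with it). Egr1, a zinc finger factor induced through ERK, had 7.28, 6.68 and 8.04 CPM with BSA and 5.63, 3.42 and 4.94 CPM with CX3CL1 (-0.79, adjusted p = 0.152, and -0.65). Zfp36, which encodes the mRNA decay factor tristetraprolin, and Dusp1, a phosphatase of p38 and JNK, also had every CX3CL1 library below every BSA library, at -0.30 and -0.24 without replicate 1 (adjusted p = 0.228 and 0.375) and -0.45 and -0.35 with it. The exceptions to the sign without replicate 1 were Sgk1 (0.22, adjusted p = 0.463), Egr2 (0.29, adjusted p = 0.79) and Btg2 (0.07, adjusted p = 0.951), which had 0.17, -0.10 and 0.02 with it.

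**Figure D4:**
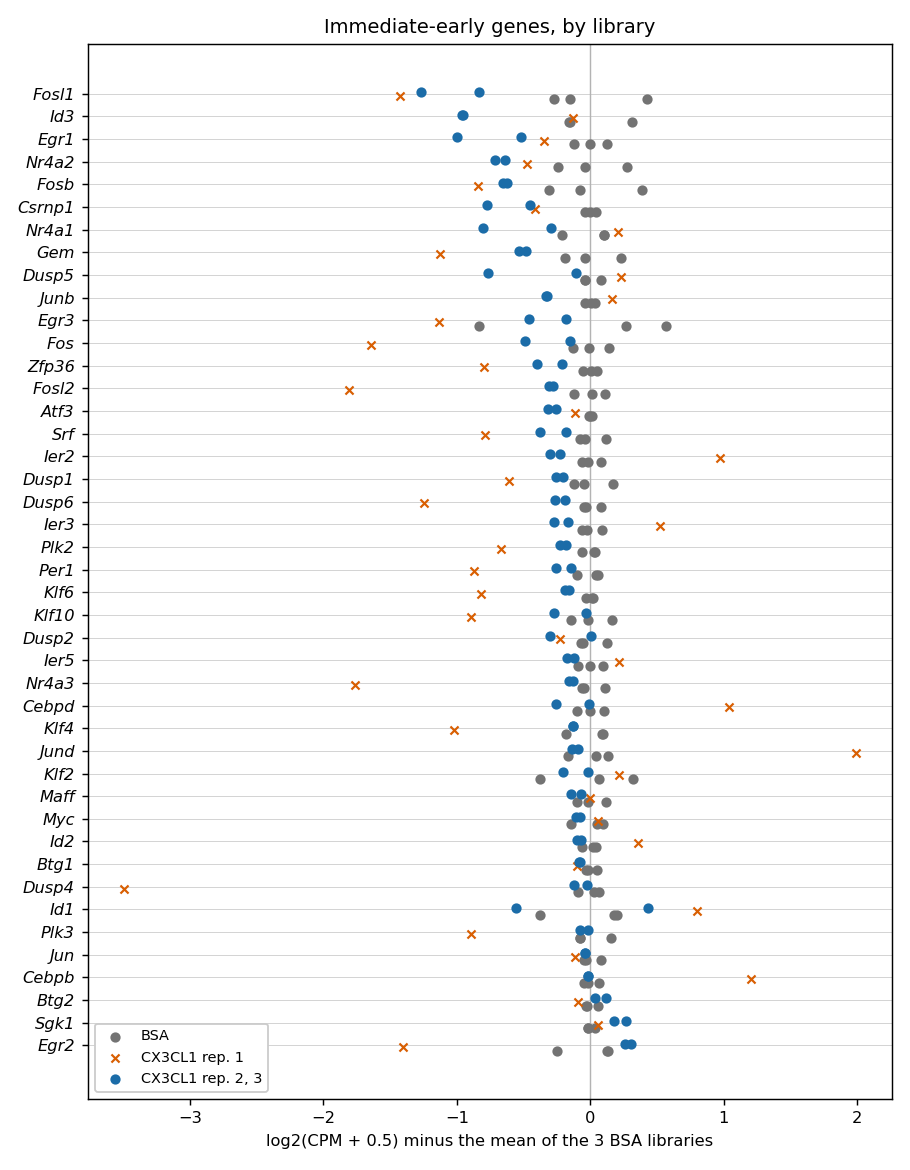
The 43 immediate-early genes (vertical axis, ordered by the mean of CX3CL1 replicates 2 and 3) with each library's difference from the BSA mean on the log2(CPM + 0.5) scale (horizontal axis). Replicates 2 and 3 have medians of -0.19 each, and replicate 1 (crosses) has a median of -0.35.

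The promoters of 5 genes that fell are printed because 3 of them carry a complete cAMP response element and because Ciart and Wsb1 carry repeated E-boxes. Sequences were taken from the RefSeq promoter table (GRCm38.p6), as the 250 bases before the start, for 26 of the 41 lower genes and 33 of the 43 immediate-early genes that had an entry. Capitals mark the cAMP response element TGACGTCA and the E-box. They also mark the element's core TGACG, which the full element contains and which was read on both strands like the other motifs. The E-box was searched as CACGTG. Plk2, Topors and Wsb1, which encodes a WD repeat protein with a SOCS box, hold the full element, Wsb1 also holds 2 E-boxes, Ciart holds 3 E-boxes and Atf3, with the smallest p, holds the core alone. The windows are chr13:110394794-110395043 on the plus strand and chr4:40269842-40270091, chr11:79254696-79254945, chr3:95882229-95882478 and chr1:191183334-191183583 on the minus strand. A second RefSeq start of Wsb1 (chr11:79243025-79243274, minus strand) had none of the marked motifs.
Plk2: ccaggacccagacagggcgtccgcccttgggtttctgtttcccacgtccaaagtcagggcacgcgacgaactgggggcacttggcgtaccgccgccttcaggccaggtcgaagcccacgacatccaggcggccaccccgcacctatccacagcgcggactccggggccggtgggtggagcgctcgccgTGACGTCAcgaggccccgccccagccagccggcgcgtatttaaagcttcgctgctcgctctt
Topors: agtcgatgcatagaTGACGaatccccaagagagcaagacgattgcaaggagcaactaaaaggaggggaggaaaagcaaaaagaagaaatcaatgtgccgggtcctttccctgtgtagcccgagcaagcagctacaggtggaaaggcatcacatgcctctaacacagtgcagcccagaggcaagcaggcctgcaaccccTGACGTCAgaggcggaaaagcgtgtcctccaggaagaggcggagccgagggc
Wsb1: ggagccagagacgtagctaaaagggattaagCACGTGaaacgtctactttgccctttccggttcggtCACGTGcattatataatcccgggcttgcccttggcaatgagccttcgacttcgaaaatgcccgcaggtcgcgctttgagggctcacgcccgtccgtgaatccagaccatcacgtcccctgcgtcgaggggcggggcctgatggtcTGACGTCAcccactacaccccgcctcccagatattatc
Ciart: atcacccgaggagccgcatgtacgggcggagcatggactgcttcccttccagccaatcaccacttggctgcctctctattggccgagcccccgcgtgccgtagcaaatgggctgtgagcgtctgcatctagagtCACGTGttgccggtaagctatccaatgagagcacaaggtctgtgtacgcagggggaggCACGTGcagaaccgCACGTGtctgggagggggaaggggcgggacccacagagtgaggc
Atf3: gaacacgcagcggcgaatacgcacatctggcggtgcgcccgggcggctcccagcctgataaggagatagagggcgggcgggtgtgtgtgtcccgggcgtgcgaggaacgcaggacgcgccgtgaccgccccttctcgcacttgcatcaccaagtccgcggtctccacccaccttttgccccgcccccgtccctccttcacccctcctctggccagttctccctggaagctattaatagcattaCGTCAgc

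The full element begins 62 bases before the start in Plk2, 52 in Topors and 38 in Wsb1, and the E-boxes begin 116, 58 and 44 bases before it in Ciart and 219 and 183 in Wsb1. These genes were picked from those already called lower. They are among the 25 of 41 lower genes with every CX3CL1 library below every BSA library. Only replicate 1 took no part in choosing the 41, and it was below all 3 BSA libraries in 47.7% of all tested genes. Over all lower genes with an entry, 57.7% held the core in at least 1 window, as did 69.7% of the immediate-early genes and 30.4% of the 9805 tested genes with an entry. The full element was in 11.5%, 12.1% and 3% of these sets, and the E-box in 23.1%, 24.2% and 9.99%. The AP-1 site (TGANTCA) was in 7.69%, 3.03% and 5.58%, the CCAAT box, read on both strands, in 38.5%, 42.4% and 40.5%, and the heat shock element GAANNTTC in 0%, 9.09% and 6.16%. A match is a run of letters and not a bound site, and no test was made of these shares.

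Protein folding genes contributed several of the small decreases. Hspa5, which encodes the endoplasmic reticulum chaperone BiP, had 1945, 1862 and 1852 CPM with BSA and 2069, 1593 and 1606 CPM with CX3CL1. Replicate 1 was above every BSA library and the other CX3CL1 libraries were below (-0.24, SE 0.0334, edgeR adjusted p = 0.00154 without replicate 1, and -0.10 with it). Of 35 genes of the unfolded protein and amino acid response 2 fell, Hspa5 and its co-chaperone Dnajb9 (-0.30, adjusted p = 0.0481, and -0.30 with replicate 1), none rose, and the median was -0.03. Of 17 heat shock chaperone genes 2 fell, Hsp90aa1 (-0.20, adjusted p = 0.0411, and -0.24 with replicate 1) and Hspa8 (-0.18, adjusted p = 0.032, and 0.16), none rose, and the median was -0.08. Over all tested genes 0.31% fell. Hspa8 had 2697, 2649 and 2611 CPM with BSA and 4225, 2324 and 2359 CPM with CX3CL1. The medians with all 9 libraries were 0.01 and 0.02, and no member passed in CX3CL1 against BSA. In CCL26 against the same BSA libraries the medians of these lists were -0.07 and -0.16 in each fit. Without CX3CL1 replicate 1, 12 and 8 members were lower with CCL26, where 9.26% of all tested genes were. In the same fit 5 and 2 members were higher, where 9.74% of all tested genes were.

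In metabolism, Slc38a2, a transporter of neutral amino acids, had 2310.1, 2329 and 2282 CPM with BSA and 1042, 2019 and 2039 CPM with CX3CL1 (-0.19, edgeR adjusted p = 0.0133 without replicate 1, and -0.44 with it). All CX3CL1 libraries were lower, and replicate 1 far lower than the rest. Among 38 glycolysis and hypoxia genes only Ndrg1, a hypoxia-induced gene, fell (-0.30, adjusted p = 0.0146, and -0.37 with replicate 1) and none rose, where 0.31% of all tested genes fell. Of the 38, 29 were negative without replicate 1 (76.3%, against 50.4% of all genes) and 25 with it (65.8%, against 50.6%), and the median was -0.07 in both fits. The glucose transporter gene Slc2a1 (-0.20, adjusted p = 0.535, and -0.27 with replicate 1) and the hexokinase gene Hk2 (-0.20, adjusted p = 0.382, and -0.36) did not pass. Of 28 NRF2 targets Fth1 fell, none rose and 22 were negative without replicate 1 (78.6%, against 50.4% of all genes), but 10 were negative with it (35.7%, against 50.6%). Hmox1, the heme oxygenase gene, had -0.14 (edgeR adjusted p = 0.064) and -0.09. In CCL26 against the same BSA libraries the medians of the glycolysis and NRF2 lists were -0.19 and -0.13 in each fit. Without CX3CL1 replicate 1, 19 and 18 members were lower with CCL26, where 9.26% of all tested genes were. In the same fit 0 and 4 members were higher, where 9.74% of all tested genes were. With all 9 libraries no member of either list passed with CCL26.

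Genes of the cell cycle had mostly positive values in CX3CL1 replicates 2 and 3, but not in replicate 1. Of 54 tested, E2f2 rose and none fell without replicate 1, where 0.0227% of all tested genes rose and 0.31% fell. There were 40 positive values and a median of 0.08, against -0.00 over all genes. At an unadjusted p under 0.05, 9 were higher (16.7%, against 3.35% of all genes), and CX3CL1 replicates 2 and 3 were above all BSA libraries in 23 of 54 (42.6%, against 12.6%). In the fit of all 9, 32 of 54 were positive, 6 had all CX3CL1 libraries above BSA (11.1%, against 4.77%) and the median was 0.06. Mki67, which marks cycling cells, had 411, 419 and 408 CPM with BSA and 325, 493 and 472 CPM with CX3CL1 (0.23, edgeR adjusted p = 0.0634 without replicate 1, and 0.06 with it). Replicate 1 was below the BSA libraries and the others above. Over the list, the median difference from BSA was -0.04 in replicate 1, 0.06 in replicate 2 and 0.10 in replicate 3, and 26 members were below and 24 above all BSA libraries in replicate 1. The summed level was 4717 to 4777 CPM with BSA and 5111, 4964 and 4976 CPM with CX3CL1.

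The inflammatory lists were read against all tested genes, of which 0.31% fell and 0.0227% rose without replicate 1. None of 42 inflammatory cytokine and NF-kB target genes passed in either fit, with medians of -0.06 without and -0.09 with replicate 1. Negative values were found in 29 of them without replicate 1 (69.0%, against 50.4% of all genes) and in 23 with it (54.8%, against 50.6%). At an unadjusted edgeR p under 0.05, 7 were lower without replicate 1 (16.7%, against 4.13% of all genes) and 2 higher (4.76%, against 3.35%). Values were -0.26 for Tnfaip3, the NF-kB inhibitor A20 (edgeR adjusted p = 0.0787), -0.35 for Gadd45b (adjusted p = 0.0703) and 0.21 for the glycolipid receptor gene Clec4e (adjusted p = 0.152). With replicate 1 they had -0.47, 0.08 and 0.22. Of 59 interferon-stimulated genes Ifi204 fell and none rose without replicate 1, and the median was 0.02, or 0.10 with it. The median of the same genes in CCL26 against the same BSA libraries was 1.02, or 1.04 in the fit of all 9. None of 21 tested alternative activation genes passed, with Socs3, an inhibitor of cytokine signalling, at -0.41 (adjusted p = 0.54) and Tgm2 at -0.33 (adjusted p = 0.209). With replicate 1 they had -0.41 and -0.32.

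The medians of some lists changed sign with CX3CL1 replicate 1. For 74 ribosomal protein genes 69 were negative and the median was -0.09 without it, and 1 of 73 was negative with a median of 0.84 with it. The median difference of this list was 1.79 in replicate 1, -0.04 in replicate 2 and -0.13 in replicate 3. For the 73 nuclear genes of oxidative phosphorylation the medians were -0.02 and 0.71, and for 30 very long coding genes 0.05 and -0.33. No member of these 3 lists passed in either fit. Of 14 mitochondrially encoded genes the ribosomal RNA gene mt-Rnr2 fell without replicate 1 (-0.24, edgeR adjusted p = 0.0409), where 0.31% of all tested genes fell. The list's median was 0.10, or 0.06 with replicate 1. mt-Rnr2 had 0.09 with all 9 libraries. None of 43 lysosome and scavenging genes, 24 cholesterol biosynthesis genes, 25 genes of cholesterol efflux and lipid handling or 26 antigen presentation genes passed in either fit, with medians of -0.02, -0.04, -0.02 and -0.00 without replicate 1 and of 0.08, -0.03, -0.14 and 0.32 with it. Of 44 genes of actin, adhesion and migration Tmsb4x fell and none rose without replicate 1, where 0.31% and 0.0227% of all tested genes did. The median was -0.03 without and -0.07 with replicate 1.

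**Figure D5:**
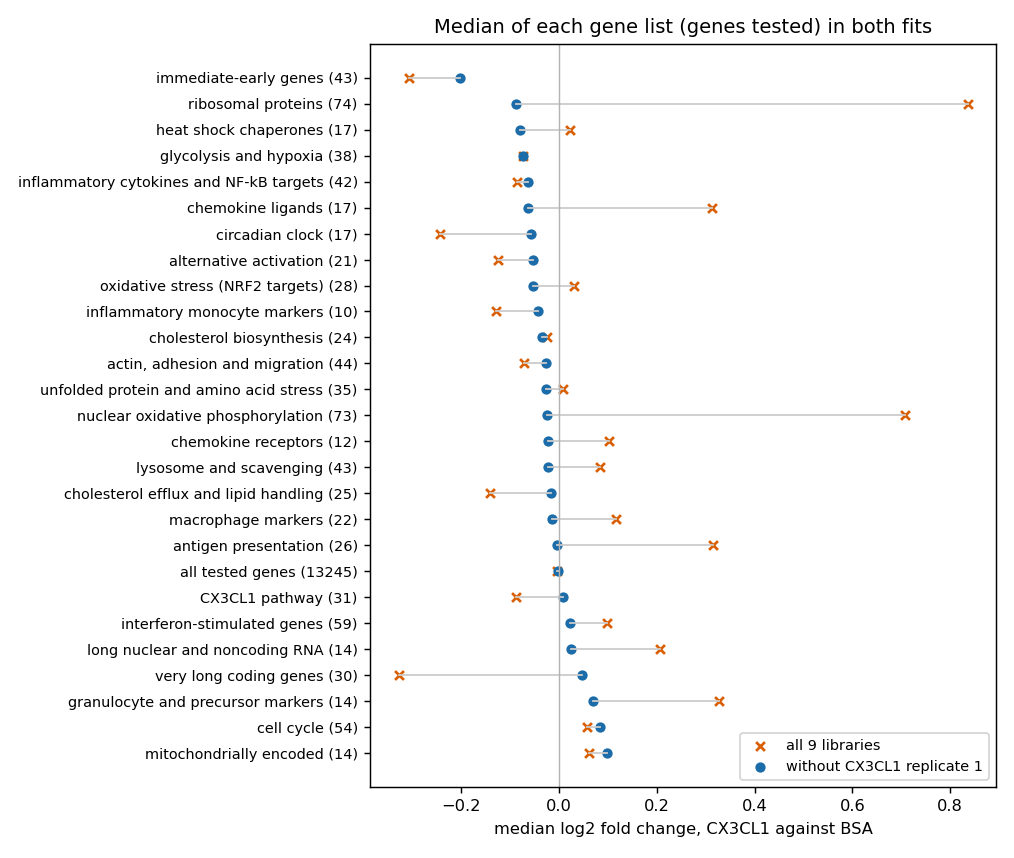
Median log2 fold change of CX3CL1 against BSA (horizontal axis) for each gene list with at least 10 tested genes (vertical axis, number tested in brackets), without CX3CL1 replicate 1 (circles) and with all 9 libraries (crosses). The immediate-early genes have -0.20 and -0.31, and the ribosomal proteins move from -0.09 to 0.84.

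No gene of the receptor's pathway passed the test. Cx3cr1 had 4.98, 7.39 and 6.40 CPM with BSA and 9.27, 7.76 and 9.51 CPM with CX3CL1, low levels, with every CX3CL1 library above every BSA library. The log2 fold change was 0.47 (edgeR unadjusted p = 0.032, adjusted p = 0.62) without replicate 1 and 0.50 (unadjusted p = 0.04, adjusted p = 0.711) with it, so it did not pass. The sheddases Adam10 (0.04, adjusted p = 0.937) and Adam17 (0.02, adjusted p = 0.969) did not pass, nor did Ccr1 (0.16), Ccr2 (0.21), Ccr3 (-0.76) or Cx3cl1 itself (0.46), which was at most 1.85 CPM in any of the 6 libraries. With replicate 1 these 6 genes had -0.29, -0.24, 0.17, -0.36, -1.30 and 0.75, in the same order. Of 31 genes in the pathway list none passed in either fit, and the median was 0.01 without and -0.09 with replicate 1. The list included the kinase gene Ptk2b (-0.11, adjusted p = 0.609), the G protein regulator gene Rgs2 (-0.21, adjusted p = 0.558) and the arrestin gene Arrb1 (0.10, adjusted p = 0.709). With replicate 1 they had -0.35, 0.03 and -0.08.

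Since no gene passed with all 9 libraries, the 10 smallest p-values of that fit are given as values. They were those of Zfp9, Ccdc61, 1700029I15Rik, Gm16310, Ciart, Slc35e3, Gm19605, Erdr1, Padi4 and Nckap5l, each at an edgeR adjusted p of 0.711. Zfp9, a zinc finger gene, had 28 counts over the 3 BSA libraries and 0 over the 3 CX3CL1 libraries. Its mean was 0.497 CPM with BSA, at least 9.29-fold higher than the 3 counts over the group that a count of 0 allows, or at least 6.79-fold for CX3CL1 replicates 2 and 3. The CCL26 libraries had 0.932, 0.672 and 0.434 CPM.

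Ccdc61, a centriolar protein gene, had 3.95, 4.44 and 4.30 CPM with BSA and 8.15, 6.71 and 6.89 CPM with CX3CL1, without overlap (0.78 with all 9 libraries and 0.69 without replicate 1). Padi4, which converts arginine in proteins to citrulline, had 10.1, 9.59 and 9 CPM with BSA and 6.75, 6.08 and 6.21 CPM with CX3CL1 (-0.59 and -0.64). Nckap5l had 27.8, 28.5 and 29.6 CPM with BSA and 19.2, 22.2 and 20.2 CPM with CX3CL1 (-0.48 and -0.44). All 3 had every CX3CL1 library on one side of the BSA libraries, as 4.77% (above) and 6.93% (below) of all tested genes had. They were picked by small p in this fit, which favours such a split. With CCL26 against BSA, Ccdc61, Padi4 and Nckap5l had 0.72, -0.12 and -0.81 without CX3CL1 replicate 1 (edgeR adjusted p = 0.00651, 0.676 and 4.43e-06). With all 9 libraries they had the same rounded values, and of them only Nckap5l passed (adjusted p = 0.0438). Erdr1, which has a near-identical copy on the other sex chromosome and is therefore uncertain, had 1.89 with and 0.97 without replicate 1.

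CX3CL1 and CCL26 were then compared directly for examples of the called genes, which do not show the balance over all of them. The fit was that without CX3CL1 replicate 1, where 614 of 13245 genes were higher (4.64%) and 724 lower (5.47%) with CX3CL1. This comparison shares the CX3CL1 libraries with the one that chose the genes, and CCL26 against BSA shares the BSA libraries, so the values are given side by side and no overlap is read from them. Against BSA, CCL26 gave 1290 higher (9.74%) and 1227 lower genes (9.26%). Ccl7 had 85.1, 92.4 and 78.1 CPM with CCL26, above BSA (0.60, edgeR adjusted p = 5.43e-07), and the log2 difference of CX3CL1 from CCL26 was -1.03 (adjusted p = 1.2e-09). Plk2 was also above BSA with CCL26 (0.19, adjusted p = 0.000826) and below it with CX3CL1, a difference of -0.40 between the chemokines (adjusted p = 3.76e-07). Ccl12, in contrast, was below BSA with CCL26 (-0.97, edgeR adjusted p = 2.73e-06). Its difference of CX3CL1 from CCL26 was 0.35 and did not pass (adjusted p = 0.133). With all 9 libraries these values were -0.97 and 0.84 for Ccl12, and neither passed (adjusted p = 0.467 and 0.423). Atf3 was at 713, 700.4 and 715 CPM with CCL26 (-0.09 from BSA, adjusted p = 0.0557), and the difference of CX3CL1 from CCL26 was -0.20 (adjusted p = 0.000549).

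Dedd2, Crem and Slc38a2 were below BSA with CCL26 too (-1.17, -1.0 and -0.61, edgeR adjusted p = 1.41e-10, 1.39e-07 and 4.14e-14), and they were lower with CCL26 than with CX3CL1. Dedd2 had 31.1, 31.9 and 37.8 CPM with CCL26 and 68.8, 56.9 and 55.5 CPM with CX3CL1 (0.74, edgeR adjusted p = 3.18e-06). Crem (0.45, adjusted p = 0.0141) and Slc38a2 (0.42, adjusted p = 5.53e-10) differed in the same direction. Ciart, Csrnp1, Slc35e3 and Odc1 did not differ between the chemokines at the threshold (adjusted p = 0.24, 0.952, 0.686 and 0.629), which does not show that they are alike. With CCL26 they were also below BSA, at -0.96, -0.60, -0.60 and -0.48 (edgeR adjusted p = 2.85e-06, 0.000234, 1.92e-05 and 2.94e-07). With all 9 libraries, where 2 genes were higher (0.0155%) and 51 lower (0.395%) with CX3CL1 than with CCL26, none of the 6 genes passed. Their signs were the same, at -0.41 for Ccl7, -0.53 for Plk2, -0.14 for Atf3, 0.85 for Dedd2 (edgeR adjusted p = 0.0535), 0.84 for Crem and 0.17 for Slc38a2. For CCL26 against BSA, 50 genes were higher (0.387%) and 6 lower (0.0465%) in that fit. Of the genes compared here 2 passed, Dedd2 (-1.17, adjusted p = 0.0146) and Ciart (-0.97, adjusted p = 0.0435).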

How the data were processed

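RNA-seq of mouse bone marrow-derived macrophages was analysed from the authors' deposited table of whole-number read counts per gene. Per the labels' protocols, RNA was made into NEBNext Ultra II libraries and read in pairs of 150 bp. STAR, featureCounts, MultiQC, GRCm38 and mm10 are named in the submitters' processing notes, without versions. Of 13593 genes, 1343 had no symbol in the table, and 1333 of these were named from GENCODE M21, which also gave positions and exonic lengths.

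Libraries were grouped by treatment label. Counts were fitted with the edgeR 4.0.16 quasi-likelihood test in R 4.3.3 (filterByExpr, TMM factors, Benjamini-Hochberg adjustment over all genes tested, no block), once with all 9 libraries and once without CX3CL1 replicate 1. The same script recovered known changes when tested on simulated data. No simulated library deviated by gene length as CX3CL1 replicate 1 did, so this does not show how the fit behaves with that library. Alternatives used limma 3.58.1, DESeq2 1.42.0, other filters, factors and thresholds, a length offset and each library left out. The 33 gene lists (948 members) and the comparison were chosen with earlier results of these data known, so lists are given by counts and medians. Genes were named by a rule: in each fit the 12 largest changes in each direction with groups that did not overlap and a mean of at least 1 CPM, the 10 smallest p where fewer than 10 genes passed, the receptor, ligand and related genes, and up to 4 members of each list by smallest p. The other called genes, and Gem, Egr1, Egr2, Btg2, Sgk1, Zfp36 and Dusp1, were named after their values were seen.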

Additional observations from a re-analysis of the deposited data

How the results depend on the processing

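With all 9 libraries, 0 genes passed in either direction under every alternative run except limma-voom with quality weights (2 higher and 27 lower, 3 of them immediate-early genes) and the fit without CX3CL1 replicate 1 (3 higher and 41 lower, 5 of them immediate-early genes). Adam10, Adam17 and Ccr2 turned positive under these 2 settings, at 0.027, 0.011 and 0.18 with quality weights and at 0.036, 0.019 and 0.21 without the library, against lowest values of -0.50, -0.40 and -0.79 without another library. Without CX3CL1 replicate 1, all 44 called genes kept their sign in every alternative run, but the counts moved. The length offset called 46 genes, with 36 of the 44 among them, and DESeq2 called 40 of the 44. DESeq2 gave 15 higher and 72 lower, limma-voom 5 higher, quality weights 19 and 113, and the BSA and CX3CL1 libraries alone 23 and 137. A filter of 5 CPM and robust dispersion each gave 6 higher. A threshold of 0.01 gave 0 and 3, with 1 immediate-early gene, and a threshold of 0.1 gave 9 higher. Leaving out 1 more library gave 0 to 35 higher, 0 to 152 lower and 0 to 7 lower immediate-early genes. With the replicate number as a block, 1 gene was higher and 15 lower, 3 of them immediate-early genes, and 14 of the 44 passed; 0 of 9 pairs of same-numbered libraries correlated above 0.1 and 3 of 9 libraries correlated best with their own number. After length correction, 3 of 3 higher genes were above BSA in replicate 1, against 1 as measured. The cause of these shifts was not tested. With 2 or 3 libraries a group, the number of libraries limits the precision.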
